A study of Mus musculus with 6 samples.

Results

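The 9 myosin heavy chain genes Myo7a, Myo15 (also written Myo15a), Myo3a, Myo3b, Myo6, Myo1c, Myo10, Myh9 and Myh14 were followed in RNA-seq of mouse cochleae (the coiled organ of hearing) taken on postnatal day 3 from Plscr5-/- knockout and wild-type animals. They were listed by name as motors known from hair cells and matched by symbol to the Ensembl gene IDs of the deposited values, and all 9 were found among 55769 features. Each genotype had 3 libraries. Plscr5 is a member of the phospholipid scramblase family, named for moving lipids between the leaflets of a membrane. The labels give neither the altered part of Plscr5, nor the strain, nor the number of animals behind a library, and their extraction text speaks of a Pou4f3(Δ/+) line that no library is labelled with. The knockout libraries held 4.30, 3.69 and 5.01 TPM of Plscr5 and the wild-type libraries 14.53, 12.42 and 9.27 TPM. TPM is a transcript abundance scaled by length to a constant total, so levels of different genes can be set side by side, but it keeps no read depth.

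Myosins are motors that walk along or pull on actin filaments. Hair cells, which turn sound into electrical signals, carry on their upper surface a bundle of stiff actin-filled protrusions, the stereocilia. Unconventional myosins move proteins along stereocilia and set the tension of the links between them, whereas nonmuscle myosin II forms contractile bipolar filaments at cell borders and in the cell cortex. Mutations in several of these genes cause deafness in mice or humans.

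Promoters are shown for the pair of genes at which the genotypes did not overlap (Myo3b, Myh14) and for the pair whose values followed each other most closely across libraries (Myo7a, Myh9), both described below. RefSeq promoter windows were listed for all 9 genes, 13 windows in all. Each stretch runs from 250 to 51 bases before a listed start, 5′ to 3′ on the strand of the gene, and for Myo7a, which has more than 1 window, it is the one farther upstream. Capitals mark CANNTG, the E-box bound by basic helix-loop-helix factors such as the hair cell factor ATOH1, and CCAAT, which reads ATTGG on the other strand.
Myo3b, GRCm38.p6, chr2:70038876-70039075, plus strand: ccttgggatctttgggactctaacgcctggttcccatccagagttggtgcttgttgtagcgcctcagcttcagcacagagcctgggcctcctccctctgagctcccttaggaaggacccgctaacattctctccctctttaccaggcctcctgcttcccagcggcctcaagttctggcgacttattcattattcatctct
Myh14, GRCm38.p6, chr7:44670894-44671093, minus strand: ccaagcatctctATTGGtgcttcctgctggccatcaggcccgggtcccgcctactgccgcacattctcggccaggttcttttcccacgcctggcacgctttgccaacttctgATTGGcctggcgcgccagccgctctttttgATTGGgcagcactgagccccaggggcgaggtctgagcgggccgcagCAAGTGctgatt
Myo7a, GRCm38.p6, chr7:98119544-98119743, minus strand: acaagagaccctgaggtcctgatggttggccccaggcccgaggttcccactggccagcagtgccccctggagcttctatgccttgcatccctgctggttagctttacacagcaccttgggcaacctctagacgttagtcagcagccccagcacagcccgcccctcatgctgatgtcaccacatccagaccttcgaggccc
Myh9, GRCm38.p6, chr15:77842226-77842425, minus strand: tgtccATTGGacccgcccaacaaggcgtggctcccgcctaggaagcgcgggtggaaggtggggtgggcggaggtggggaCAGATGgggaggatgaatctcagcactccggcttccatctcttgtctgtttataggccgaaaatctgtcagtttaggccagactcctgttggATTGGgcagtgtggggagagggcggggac
Within the 250 bases before the start, CANNTG matched 0 times in Myo3b, 1 time in Myh14, 0 times in the printed Myo7a window and 2 times in its other window, and 1 time in Myh9, and 66.2% of 32851 listed promoters held it. CCAAT on either strand matched 4 times in Myh14 and 2 times in Myh9, with no match in Myo3b or either Myo7a window, and 33.8% of promoters held it. TATAAA on either strand matched 1 time in Myh9 and in none of the others, against 12.4% of promoters. No marked match overlapped another in the printed stretches. A match is a string of letters and was not tested for binding.

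All 9 myosins passed the filter for testing. In the limma fit across 17097 features, 0 of 9 passed an adjusted p of 0.05 (Benjamini-Hochberg over all features), where 0.0117% of all features did. Plscr5 itself, at 35.9% of the wild-type level, did not pass (log2 fold change -1.28, limma adjusted p = 0.290). Not passing therefore does not show that a gene was unchanged. At an unadjusted p under 0.05 there were 2 of 9, Myh14 and Myo3b, both lower in the knockout, against 1.85% of all features on the lower side and 2.15% on the higher side. Of the 9 log2 fold changes 7 were negative, against 53.4% of all features, with a median of -0.09 for the 9 genes and -0.01 for all features. The median of the 9 was closer to 0 with single libraries left out, at -0.044 without knockout replicate 2, -0.053 without knockout replicate 3 and -0.043 when wild type replicate 3 was omitted, and after removal of GC and length trends (-0.028), and it was -0.16 without knockout replicate 1. Each fold change is the knockout mean less the wild-type mean of log2(TPM + 1), a scale that understates the change of low genes, and errors are SD over 3 libraries. The genotypes were without overlap at 2 of 9 myosins, both lower, against 9.33% of all features in either direction and 4.60% on the higher side. Because cochlear tissue of many cell types was sequenced together, fewer cells of a type and less RNA per cell cannot be told apart.

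Levels spanned more than an order of magnitude in both genotypes. In the knockout, mean levels ran from 134.5 TPM for Myo6, through 54.9 TPM for Myh14, 45.5 TPM for Myh9, 35.2 TPM for Myo7a, 22.97 TPM for Myo10, 17.2 TPM for Myo1c and 12.0 TPM for Myo15, down to 6.52 TPM for Myo3b and 5.01 TPM for Myo3a. The order of means was the same in the wild type. Neighbours whose ranges over libraries overlapped were Myh14 with Myh9 and Myh9 with Myo7a in the knockout, and Myo1c with Myo15 in the wild type. Every other neighbouring pair was separated in all libraries of its genotype.

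**Figure D1:**
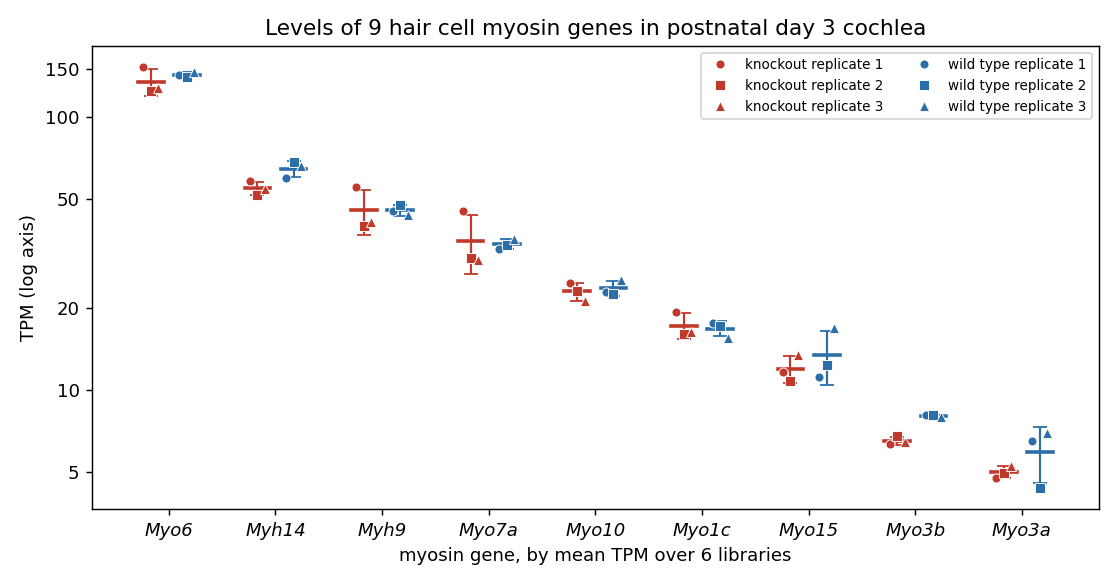
TPM (log axis) of the 9 myosins, ordered by mean over 6 libraries, in 3 knockout (red) and 3 wild-type (blue) libraries, with marker shape for replicate number, horizontal bars for means and whiskers for SD. The genotypes are apart at Myo3b and Myh14, and knockout replicate 1 (circle) lies above all other libraries at Myo7a, Myh9, Myo6 and Myo1c.

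The class III myosins carry a kinase domain ahead of the motor and bring espins, which bundle actin, to stereocilium tips. Myo3b stood at 6.36, 6.77 and 6.44 TPM in knockout libraries, against 8.09, 8.13 and 7.98 TPM in wild-type libraries. Every knockout value lay below every wild-type value, a separation seen on the lower side at 4.74% of all features, and the wild-type values were within 0.15 TPM of each other. The mean was 6.52 ± 0.22 TPM in knockout libraries, against 8.07 ± 0.08 TPM in wild-type libraries, or 80.9% of the wild-type level, with a log2 fold change of -0.27 (SE 0.11, 95% confidence interval -0.53 to -0.01). Its limma adjusted p was 0.989, so the difference did not pass. The two-sided exact permutation p was 0.1, the smallest that 3 libraries against 3 can give. Its close relative Myo3a stood at 4.77, 4.98 and 5.28 TPM in knockout libraries, against 6.50, 4.38 and 6.95 TPM in wild-type libraries. Wild type replicate 2 lay below all knockout libraries and the other two wild-type libraries above them, so the genotypes overlapped (log2 fold change -0.19, SE 0.18, limma adjusted p = 0.989). Without that library the Myo3a log2 fold change was -0.36 (limma adjusted p = 0.801), and leaving out any 1 of the 6 gave values between -0.36 and -0.08. The sum of both class III transcripts was 11.13, 11.75 and 11.72 TPM in knockout libraries, against 14.59, 12.51 and 14.93 TPM in wild-type libraries, again without overlap (two-sided exact permutation p = 0.1). This sum includes Myo3b, already without overlap, and is not a separate result. The ratio of Myo3b to Myo3a overlapped, at 1.30 ± 0.07 in the knockout and 1.42 ± 0.38 in the wild type (n = 3 each). Among class III cargo genes, 0 of 3 passed in either direction. The log2 fold changes were -0.22 for Espnl (espin-like), -0.04 for Espn and 0.03 for Morn4, a partner of Myo3a.

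Nonmuscle myosin II has 3 heavy chains, Myh9, Myh10 and Myh14. The chain encoded by Myh14 forms a belt of contractile filaments along the apical junctions of cochlear epithelial cells. Myh14 stood at 58.10, 51.83 and 54.66 TPM in knockout libraries, against 59.54, 68.30 and 65.92 TPM in wild-type libraries. The genotypes did not overlap, though knockout replicate 1 and wild type replicate 1 were within 1.44 TPM of each other. The mean was 54.9 ± 3.1 TPM in knockout libraries, against 64.6 ± 4.5 TPM in wild-type libraries, 84.9% of the wild-type level (log2 fold change -0.23, SE 0.08, 95% confidence interval -0.43 to -0.04). Its limma adjusted p was 0.989 and its two-sided exact permutation p 0.1. Myh9, whose product drives cortical tension in most cell types, stood at 55.35, 39.85 and 41.21 TPM in knockout libraries, against 45.17, 47.59 and 43.74 TPM in wild-type libraries. Knockout replicate 1 was the highest and the other two knockout libraries the lowest of the 6. The Myh9 mean was 45.5 ± 8.6 TPM in knockout libraries, against 45.5 ± 1.9 TPM in wild-type libraries, with a 95% confidence interval of the log2 fold change from -0.31 to 0.28. Myh10, the third chain, had the highest level of these chains, with a log2 fold change of 0.07 (SE 0.07).

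As a share of the summed TPM of the 3 heavy chains, Myh14 made up 28.7%, 29.1% and 31.2% in knockout libraries and 31.8%, 34.7% and 34.9% in wild-type libraries. These shares did not overlap, with a mean difference of -4.15 percentage points (two-sided exact permutation p = 0.1, the smallest possible). They are built from the Myh14 values, already without overlap, and are not a separate result. The Myh10 share was 45.9 ± 2.4% in the knockout and 42.4 ± 1.5% in the wild type, with overlap. The Myh9 share overlapped too, at 24.4 ± 2.6% in the knockout and 23.8 ± 0.6% in the wild type. The summed level was 185 ± 15 TPM in knockout libraries, against 191 ± 5.3 TPM in wild-type libraries (exact permutation p = 0.6). The light chains and regulators of these motors were also measured: of 10 features, 0 passed in either direction, with a median log2 fold change of 0.01. They included the light chain genes Myl6 (0.06), Myl12a (0.03) and Myl9 (0.01), the kinase genes Mylk (0.01), Rock1 (-0.03) and Rock2 (-0.08), and the phosphatase genes Ppp1r12a (-0.16) and Ppp1cb (-0.03). Both features named Myl12b overlap on the genome, so the split of reads between them is uncertain. They had log2 fold changes of 0.20 (ENSMUSG00000034868, limma adjusted p = 0.989) and 0.04 (ENSMUSG00000117098).

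**Figure D2:**
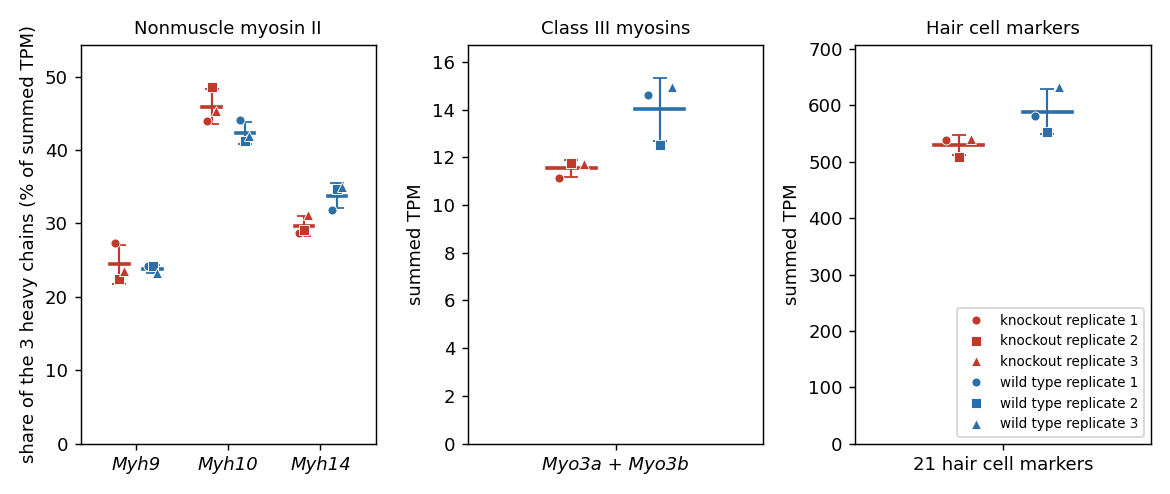
Left, share of Myh9, Myh10 and Myh14 in their summed TPM (percent); middle, summed TPM of Myo3a and Myo3b; right, summed TPM of 21 hair cell markers, without Pvalb and Calb2, which were dropped after their values were seen, for 3 knockout (red) and 3 wild-type (blue) libraries, with bars for means and whiskers for SD. The Myh14 share, the class III sum and the marker sum are each lower in all knockout libraries than in all wild-type libraries, with knockout means of 29.7%, 11.5 TPM and 529 TPM, against wild-type means of 33.8%, 14.0 TPM and 589 TPM, whereas the sum of all 23 markers overlaps (904.2 to 955.8 TPM in the knockout, 818.7 to 929.8 TPM in the wild type). The share and the class III sum contain Myh14 and Myo3b, which were already without overlap.

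Motors of stereocilium length and of the tip link did not separate the genotypes. Myo15 carries whirlin and EPS8 to stereocilium tips and is needed for stereocilia to lengthen. Myo15 stood at 11.67, 10.80 and 13.46 TPM in knockout libraries, against 11.21, 12.32 and 16.87 TPM in wild-type libraries. Wild type replicate 3 was highest and the remaining 5 libraries were interleaved, and the log2 fold change of -0.14 (SE 0.16, limma adjusted p = 0.989) was 0.02 without that library. Of the 4 genes of its cargo complex, Whrn (whirlin, log2 fold change -0.08), Eps8 (-0.06), Gpsm2 (-0.11) and Gnai3 (-0.04), 0 passed in either direction and each overlapped between genotypes. Myo7a, a motor at the upper end of the tip link and the gene mutated in shaker-1 mice, stood at 45.27, 30.36 and 30.01 TPM in knockout libraries, against 32.93, 34.03 and 35.81 TPM in wild-type libraries. Knockout replicate 1 was the highest and the other two knockout libraries the lowest, as at Myh9. The mean was 35.2 ± 8.7 TPM in knockout libraries, against 34.3 ± 1.5 TPM in wild-type libraries, a log2 fold change of 0.01 (SE 0.16, 95% confidence interval -0.35 to 0.37). Of the Myo7a partners, 0 of 4 tested genes passed. Ush1c, a scaffold (log2 fold change -0.20, limma adjusted p = 0.989), and the tip-link cadherin gene Pcdh15 (-0.28) were lower without overlap, as were 4.74% of all features. The other tip-link cadherin gene Cdh23 (-0.06) and Pdzd7 (-0.08) overlapped. Ush1g, a further scaffold, was below the filter, at 0.26, 0.73 and 0.62 TPM in knockout libraries, against 0.62, 0.75 and 1.02 TPM in wild-type libraries.

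Myo6 moves towards the opposite end of actin filaments from other myosins, anchors the base of stereocilia and serves in vesicle uptake. It had the highest level, with 152.22, 124.09 and 127.22 TPM in knockout libraries, against 142.52, 139.50 and 145.96 TPM in wild-type libraries. The knockout libraries lay on both sides of the wild-type range, and the log2 fold change was -0.09 (SE 0.09, limma adjusted p = 0.989). Of 8 adaptor and partner genes of Myo6, 0 passed in either direction. Tom1, an endosomal adaptor, was higher without overlap, at 39.46, 37.84 and 36.68 TPM in knockout libraries, against 29.29, 35.48 and 33.87 TPM in wild-type libraries (log2 fold change 0.21, limma adjusted p = 0.989). Dab2, a clathrin adaptor, was lower without overlap (-0.07), and Gipc3, a deafness gene in mice and humans, was at -0.21 with overlap. Over all features, 4.60% were higher and 4.74% lower without overlap. The others were Gipc1 (-0.09), Optn (0.11), Tax1bp1 (-0.01), Lmtk2 (-0.10) and Cdc37 (0.07). Myo1c, proposed as a motor of adaptation at the tip link, stood at 19.39, 16.01 and 16.33 TPM in knockout libraries, against 17.58, 17.23 and 15.57 TPM in wild-type libraries. Myo10, a motor of filopodium tips, stood at 24.59, 23.11 and 21.22 TPM in knockout libraries, against 22.94, 22.57 and 25.33 TPM in wild-type libraries. Both overlapped, with 95% confidence intervals of the log2 fold change from -0.22 to 0.29 for Myo1c and from -0.26 to 0.18 for Myo10. The annotation marks the Myo10 locus as overlapping another, and the sources used here do not say whether reads were assigned by strand. The calmodulin genes Calm2 and Calm3, which encode light chains of many unconventional myosins, also overlapped, with log2 fold changes of 0.18 for Calm2 and 0.12 for Calm3.

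**Figure D3:**
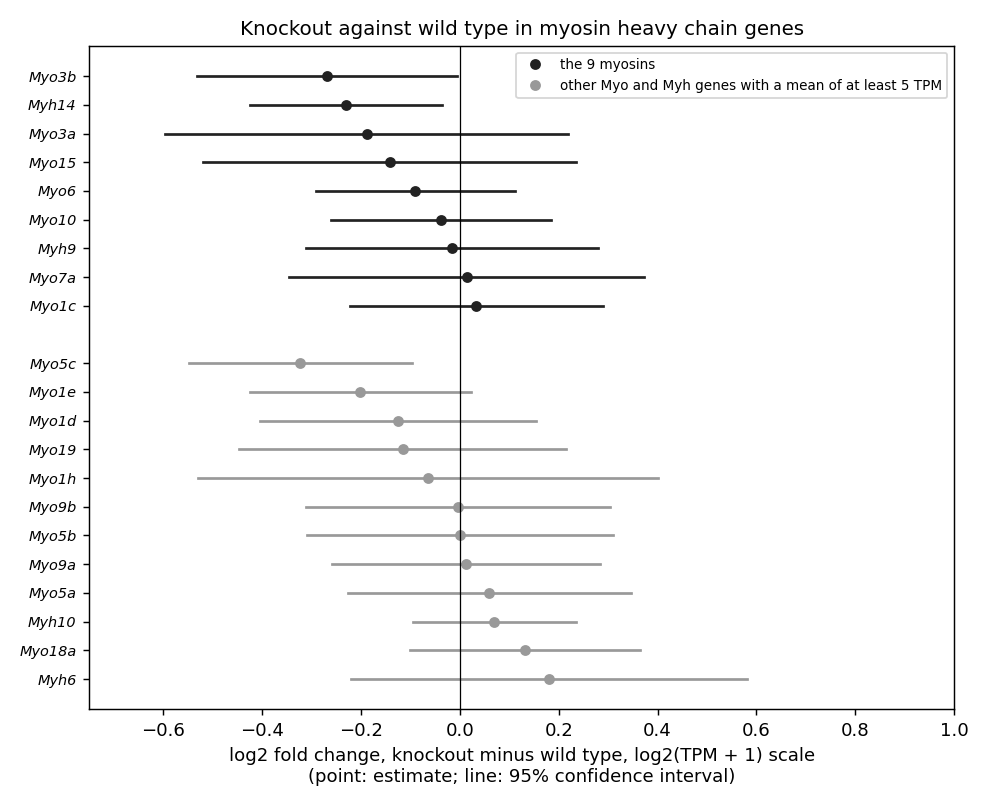
Log2 fold change (knockout less wild type, from log2(TPM + 1)) of the 9 myosins (black) and 12 other Myo and Myh genes with a mean of at least 5 TPM (grey), with lines for 95% confidence intervals. The intervals of Myo3b, Myh14 and Myo5c lie below 0 and all others span it, and none of these genes passed after adjustment.

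One library carried much of the spread. Knockout replicate 1 was the highest of 6 libraries at 4 of 9 myosins, Myo7a, Myo6, Myo1c and Myh9, by 0.39, 0.14, 0.18 and 0.29 above each gene's mean on the log2(TPM + 1) scale. The coefficient of variation of Myo7a was 24.7% among knockout libraries and 4.24% among wild-type libraries. That of Myh9 was 18.9% in the knockout and 4.28% in the wild type. Across the 6 libraries Myo7a and Myh9 had a Pearson r of 0.93, the highest of 36 pairs of members, Myo1c with Myh9 had 0.89, Myo7a with Myo6 0.87 and Myo6 with Myh9 0.84. The lowest was -0.52, between Myo15 and Myo1c. These values are descriptions over libraries that share the TPM scale and include the 1 high library. Myo15, Myo3a and Myo10 were instead highest in wild type replicate 3. That library held the lowest summed Schwann cell (599.0 TPM) and neuronal markers (745.1 TPM) and the highest summed supporting cell markers (1984 TPM). Its sum of 21 hair cell markers was the highest (631.9 TPM) and that of all 23 the lowest (818.7 TPM). The part of this in the myosin values was not tested.

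**Figure D4:**
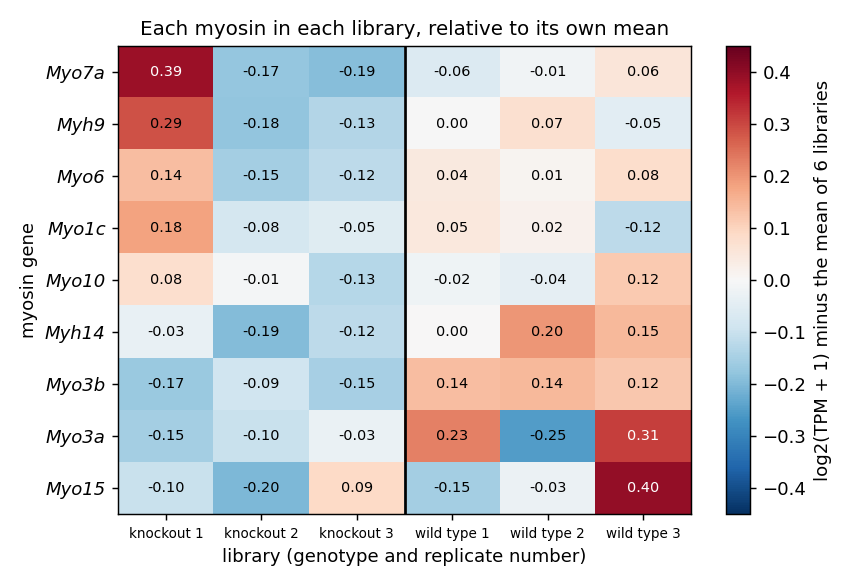
Each myosin (rows) in each of 3 knockout and 3 wild-type libraries (columns), as log2(TPM + 1) minus its mean over 6 libraries (red above, blue below). Knockout replicate 1 is high for the top rows, led by Myo7a at 0.39, and only Myo3b and Myh14 have higher values in all wild-type libraries than in all knockout libraries.

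Without knockout replicate 1, all 9 log2 fold changes were negative, against 57.7% of features tested in that setting, and their median was -0.16, against -0.03 for all features. Leaving out another library did not give this: 6 of 9 were negative without knockout replicate 2, 5 without knockout replicate 3, 8 without wild type replicate 1, and 6 without wild type replicate 2 or without wild type replicate 3. Knockout replicates 2 and 3 lay below every wild-type library at 5 of 9 myosins, Myo7a, Myo3b, Myo6, Myh9 and Myh14, against 17.4% of features. Myo3b and Myh14 were already separated with all libraries. Knockout replicate 1 was singled out as the highest library at Myo7a, Myo6, Myo1c and Myh9. Lower values of these genes without it follow in part from that choice, which the share of all features does not reflect. The log2 fold change of Myo7a was then -0.18, of Myo6 -0.18 and of Myh9 -0.16, with limma adjusted p values of 0.798 for each, so none passed. No source gives a reason to set that library aside. It held the lowest summed red blood cell markers, at 442.5 TPM against 634.3 to 1482 TPM in the other two knockout libraries and 910.8 to 1048 TPM in wild-type libraries, and the highest summed Schwann cell markers, at 2430 TPM against 1598 to 1668 TPM in the other two knockout libraries and 599.0 to 1578 TPM in wild-type libraries. Among hair cell markers it was the highest library at 1 of 23, Pvalb. The part of these shifts in the myosin values was not tested.

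**Figure D5:**
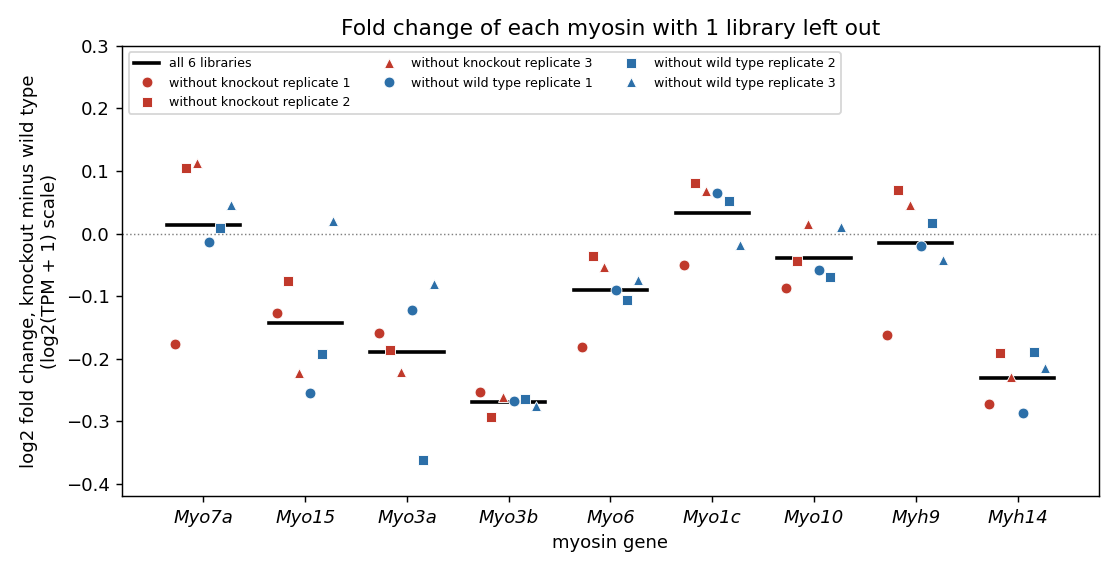
Log2 fold change of each myosin with all 6 libraries (black bar) and with 1 library left out (red for knockout, blue for wild type; marker shape for the replicate number left out). Values for Myo3b stay between -0.29 and -0.25 and those for Myh14 between -0.29 and -0.19, whereas Myo7a runs from -0.18 to 0.11 and Myh9 from -0.16 to 0.07.

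The lower values of Myo3b and Myh14 stood beside lower values of most sensory epithelium markers. Of 23 hair cell markers, all of them detected, 19 had negative log2 fold changes, with a median of -0.14, and 0 passed in either direction. Of all features 53.4% were negative, with a median of -0.01. The 4 positive markers were Pvalb (0.70), Calb2 (0.35), Slc17a8 (0.13) and Gfi1 (0.01). Their summed level overlapped, at 904.2 to 955.8 TPM in knockout libraries, against 818.7 to 929.8 TPM in wild-type libraries. Pvalb and Calb2, which neurons also express, made up much of it, and without this pair, a choice made after their values were seen, the sum was 537.9, 509.2 and 541.0 TPM in knockout libraries, against 581.8, 552.9 and 631.9 TPM in wild-type libraries, with no overlap. The 15 supporting cell markers, all detected, summed to 1646 to 1729 TPM in knockout libraries, against 1767 to 1984 TPM in wild-type libraries, also without overlap, and 14 of them had negative log2 fold changes. Per 1000 TPM of the 21 hair cell markers, Myo3b stood at 12.3 ± 0.8 TPM in knockout libraries, against 13.7 ± 1.0 TPM in wild-type libraries (two-sided exact permutation p = 0.2). On the same scale Myh14 stood at 104 ± 4 TPM in knockout libraries, against 110 ± 12 TPM in wild-type libraries (exact permutation p = 0.5), and Myo15 at 22.6 ± 2.0 TPM in knockout libraries, against 22.8 ± 3.7 TPM in wild-type libraries (exact permutation p = 1). These ratios all overlapped between genotypes. They rest on the 21 markers kept after the values were seen. The sum of all 23 was not lower in the knockout, at 955.8, 930.5 and 904.2 TPM, against 914.2, 929.8 and 818.7 TPM in wild-type libraries. Relative to that sum, Myo3b and Myh14 were each lower in every knockout library than in every wild-type library. The overlap at Myo3b and Myh14 therefore does not hold for the full list. Per 1000 TPM of supporting cell markers, Myh14 also overlapped, at 32.3 ± 1.4 TPM in knockout libraries, against 34.9 ± 3.3 TPM in wild-type libraries (exact permutation p = 0.3).

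Base composition differed among the members and one library leaned on it. The longest annotated transcript had a GC content of 43.2% for Myo3a, 44.2% for Myo6 and 47.0% for Myo3b, and of 53.6% to 60.8% for the other 6 genes, Myh14 being the highest. Across 14237 protein-coding genes, deviations of wild type replicate 1 had a Spearman rho of -0.427 with GC content, and the other 5 libraries had 0.02 to 0.16. With transcript length, rho was 0.162, -0.171 and -0.266 in knockout libraries, against 0.186, -0.033 and 0.005 in wild-type libraries. The longest transcripts of the 9 myosins ran from 4718 bases for Myo1c to 11769 bases for Myo15. The part of length alone in their values was not tested. Removing GC and length trends from each library left both Myo3b and Myh14 at -0.23 (limma adjusted p = 0.921 for each). In the same setting Myo6 was at -0.028, against -0.09 before, Myo3a was at -0.14, against -0.19 before, and the median of the 9 genes was -0.028.

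Beyond the 9 genes, 30 other protein-coding Myo and Myh genes were listed, of which 17 were tested and 0 passed in either direction, with 7 negative and 10 positive log2 fold changes and a median of 0.01. Of all features 53.4% were negative. Myo5c, a class V motor of secretory epithelia, was the 1 gene with an unadjusted p under 0.05, which 4% of all features had. It stood at 22.40, 19.70 and 23.44 TPM in knockout libraries, against 26.18, 27.51 and 28.93 TPM in wild-type libraries, without overlap (log2 fold change -0.32, SE 0.10, limma adjusted p = 0.989). Myo1e, a class I motor of membranes, was also lower without overlap, at 25.87, 26.55 and 25.24 TPM in knockout libraries, against 31.42, 26.63 and 32.01 TPM in wild-type libraries (log2 fold change -0.20). Of all features, 4.74% were lower without overlap. Other genes above a mean of 5 TPM overlapped, among them the class I genes Myo1d (-0.13) and Myo1h (-0.07), the class V genes Myo5a (0.06) and Myo5b (0.00), the class IX genes Myo9a (0.01) and Myo9b (0.00), Myo18a (0.13), the mitochondrial motor Myo19 (-0.12) and the cardiac heavy chain Myh6 (0.18). Of the shared machinery, the log2 fold change of the myosin chaperone Unc45a was 0.05, and those of the actin and tropomyosin genes were 0.11 for Actb, 0.13 for Actg1, 0.03 for Tpm1, 0.03 for Tpm3 and 0.02 for Tpm4, with overlap at each. Over all 38 tested partner features, 20 were negative and 18 positive and 0 passed.

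The genes whose log2(TPM + 1) followed Myo7a most closely over the 6 libraries, among 11903 protein-coding genes with a mean of at least 5 TPM, were Smap2, Rgmb, Zfp335, Tcof1 and Prox2, with Pearson r from 0.986 to 0.994. For Myh9 they included Sphk2, Tspan15, Clip2 and Lrp3, with r from 0.986 to 0.991. Each of these 9 genes was highest in knockout replicate 1, as were Myo7a and Myh9, so this follows largely from how they were chosen. Rgmb, for example, had 21.81, 15.17 and 14.76 TPM in knockout libraries, against 16.62, 17.13 and 17.31 TPM in wild-type libraries. Over these 6 points, 227 genes had an r above 0.9 with Myo7a and 305 with Myh9.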

How the data were processed

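Total RNA of cochleae was sequenced in 6 libraries, and the labelled genotype set the groups. The deposited values are TPM (length-scaled transcript abundance), a unit read from the values themselves, since each library sums to 1000000 and low values show no common step of 1 read. The submitters' processing notes name DESeq2 and build mm8 with no role, while the sources used here do not give the aligner, quantifier or annotation. Depth is unknown, so no counting interval or floor is given. Where nothing says that libraries came from separate animals, p-values measure only the spread between libraries, which may be technical.

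Symbols, biotypes, transcript lengths and GC content came from GENCODE M21 (GRCm38), which named 52083 of 55769 features, and promoter sequences from RefSeq (GRCm38.p6). Because these builds differ from mm8, the coordinates given are only those of the RefSeq promoter windows, in GRCm38.p6. A feature was kept if 3 or more libraries reached 1 TPM, which left 17097. Values were transformed to log2(TPM + 1), a pseudocount of 1, and fitted by limma 3.58.1 (R 4.3.3), using robust moderation, an intensity trend and Benjamini-Hochberg adjustment. A test for counts had been foreseen only in case the files held counts. The fit was tested on simulated data. Exact permutation tests ran over all 20 splits of 3 and 3.

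The members, the partner and marker lists and the alternatives were chosen with earlier results of these data known. Named were the 9 members, all partner genes, other Myo and Myh genes with a mean of at least 5 TPM, Plscr5, and the 5 genes most like Myo7a and Myh9. A few of these are not reported here.
Marker lists covered hair cells, supporting cells, neurons, Schwann cells, skeletal and smooth muscle, red blood cells, macrophages, endothelial cells, osteoblasts and melanocytes. Alternatives were other pseudocounts, filters, scalings and variance settings, marker covariates, a replicate block and each library left out.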

Additional observations from a re-analysis of the deposited data

How the results depend on the processing

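In all 20 alternatives 0 of 9 myosins passed, with the smallest adjusted p at 0.675 (limma). Removal of GC and length trends and the restriction to protein-coding genes were added after the data had been seen. Of 180 checks of single myosins, 161 kept their direction and 19 changed sign. Myo3b (-0.33 to -0.23) and Myh14 (-0.29 to -0.19) kept theirs in all 20. With a hair cell marker covariate, whose values were lower in all knockout than in all wild-type libraries, the median of the 9 log2 fold changes was 0.13 and 2 were negative. All features shifted too in that setting, to a median of 0.04 with 40.3% negative. Of the myosins, Myo15 (0.12), Myo3a (0.15), Myo6 (0.14), Myo10 (0.12) and Myh9 (0.21) changed sign. With a nerve marker covariate Myo7a (-0.023), Myo15 (0.10), Myo1c (-0.07) and Myo10 (0.0065) did. The cause was not tested. DESeq2, planned for counts only, was not run on TPM. Over single libraries left out, Myo7a ran from -0.18 to 0.11, Myo1c from -0.050 to 0.081, Myh9 from -0.16 to 0.070, Myo10 from -0.087 to 0.015 and Myo15 from -0.25 to 0.020. Over all features 2 passed, against 0 to 6 in the alternatives. Same-numbered libraries had deviation correlations of 0.188, -0.055 and 0.242, against -0.269 to 0.126 for unlike numbers. The labels do not say that the numbers pair libraries, so the main fit used no pairing. Whether they do was not settled. With the replicate block Myh14 had an adjusted p of 0.675, Myo3b one of 0.682, and 0 features passed. In that setting 7.31% of features had an unadjusted limma p under 0.05, against 4% in the main fit. Depth is unknown, and a value near 5 TPM, as for Myo3a, has no counting error attached.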

Other observations

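Muscle myosins were near the lower end of the scale. Of the 13 Myo and Myh genes below the filter, 12 stayed under 1 TPM in every library, and the exception was Myh8, a perinatal skeletal muscle heavy chain, at 1.92, 0.55 and 0.24 TPM in knockout libraries, against 0.25, 0.10 and 0.58 TPM in wild-type libraries. Of 13 skeletal muscle markers 6 were tested and 0 passed, and their sum was 31.6 to 37.2 TPM in knockout libraries, against 34.6 to 38.7 TPM in wild-type libraries. The smooth muscle heavy chain gene Myh11 stood at 0.37 to 0.40 TPM in knockout libraries, against 0.32 to 0.64 TPM in wild-type libraries, in a list of 8 smooth muscle markers, of which 5 were tested and 0 passed, that summed to 49.7 to 64.1 TPM in knockout libraries, against 49.5 to 52.0 TPM in wild-type libraries. The cardiac heavy chain gene Myh6 was an exception in level, with 10.70, 11.90 and 11.08 TPM in knockout libraries, against 7.62, 9.59 and 12.71 TPM in wild-type libraries.

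The remaining marker lists also had 0 members past the threshold in either direction. Neuronal markers (18 tested) had a median log2 fold change of 0.68 and Schwann cell markers (14) one of 0.72, red blood cell markers (5) -0.47, macrophage markers (10) 0.07, endothelial markers (10) 0.05, osteoblast markers (10) 0.18, melanocyte markers (5) 0.15 and supporting cell markers (15) -0.11. The summed neuronal markers were 1132 to 1406 TPM in knockout libraries, against 745.1 to 1186 TPM in wild-type libraries, with wild type replicate 3 at the low end. It was also lowest in summed Schwann cell markers, at 599.0 TPM.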
